A study of Homo sapiens with 36 samples.

Results

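To ask how chromatin and AP-1 differ at the genes that anchor epithelial cells, 9 integrin genes were examined in A549 and BEAS-2B (B2B) cells: ITGA2, ITGA3, ITGA5, ITGA6, ITGAV, ITGB1, ITGB4, ITGB6 and ITGB8. They were chosen by name as the integrins of epithelial adhesion, and are 9 of the 20033 protein-coding genes of GENCODE release 44. Peaks were collected within 3 kb of any annotated start site, across the gene bodies and, for the Jun family, within 100 kb of a start.

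Integrins are receptors made of 1 alpha and 1 beta chain that span the plasma membrane and tie the matrix outside the cell to the cytoskeleton inside. The chain pair sets the ligand. The alpha 2 chain pairs with beta 1 to bind collagen, alpha 3 pairs with beta 1 to bind laminin, and alpha 6 with beta 4 forms the laminin receptor of hemidesmosomes, which fix epithelium to the basement membrane. The alpha 5 chain with beta 1 is the main fibronectin receptor. The alpha V chain pairs with beta 6 or beta 8, among others, to bind ligands with an RGD motif, and both pairs activate latent TGF-beta.

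Chromatin immunoprecipitation followed by sequencing was done in A549, a lung adenocarcinoma line, and in B2B, an immortalized line of non-cancerous bronchial epithelium. The labels name no treatment, and each condition is a single cell line. Both lines were profiled for RNA polymerase II (pol II), H3K4me3, H3K27ac, the Mediator subunit Med1 and the AP-1 subunits JunB, Jun and JunD, and B2B also for CTCF and the cohesin subunit Rad21. Each of the 16 pairs of line and target was measured in 2 replicates that were merged before peaks were called, so every value below comes from 1 pooled list, has no replicate error and allows no test between the lines. Sequencing depth per list was not given.

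The lists held 8563 to 61225 peaks, with a median pileup at the summit of 19 to 106 reads in samples of 1002 to 1075 peaks per list. A gene was scored only in lists that reach it. The A549 H3K27ac list ended on chromosome 13, both Med1 lists on chromosome 15 and the A549 pol II list on chromosome 20. ITGA3 and ITGB4, on chromosome 17, were therefore read in 13 of the 16 lists, and the other 7 genes in all 16. As a check of identity, H3K4me3 lay within 3 kb of a start for 4 of 5 epithelial markers in both lines (KRT8, KRT18, EPCAM and CDH1, not KRT19). It lay at 2 of 4 leukocyte markers in A549 and 0 of 4 in B2B, at 1 of 3 endothelial markers in both, and at 2 of 4 fibroblast markers in A549 and 3 of 4 in B2B. Over all protein-coding genes the share was 73.7% in A549 and 62.8% in B2B, so 4 of 5 epithelial markers stood near it. With so few markers these counts do not tell cell types apart. CDKN2A, which A549 cells lack, had neither pol II nor H3K4me3 in A549 and had both in B2B.

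AP-1 is a dimer of Jun-family with Fos- or ATF-family proteins, and its best known site is TGACTCA, which reads TGAGTCA on the other strand. The sequences below come from the strongest summits of named Jun-family regions described later. Each copy of this site is in capitals, and bases are read from hg38 on the plus strand unless stated. Only sequences that hold the site are printed, and not all of those. The windows of several other named regions, among them all those near ITGA2, held no copy. Windows of 81 bases are centred on the summit. Where the window touched an annotated exon, 29 bases around the site nearest to the summit are given. The ITGA5 promoter comes from RefSeq (GRCh38.p14), in the direction of the gene, up to the first transcribed base. The ITGA5 and ITGB4 promoters were added after their values were seen.
ITGA3, upstream, both lines, chr17:50051180-50051208: TGACTCAgcccTGACTCAgccatgtggcc
ITGA6, intron, both lines, chr2:172442196-172442276: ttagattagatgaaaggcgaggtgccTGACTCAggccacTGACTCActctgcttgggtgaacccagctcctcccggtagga
ITGAV, upstream, both lines, chr2:186575466-186575546: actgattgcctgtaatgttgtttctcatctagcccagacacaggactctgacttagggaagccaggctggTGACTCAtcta
ITGAV, upstream, A549 alone, chr2:186572834-186572914: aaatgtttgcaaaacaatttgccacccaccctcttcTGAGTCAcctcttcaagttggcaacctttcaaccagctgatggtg
ITGB1, distal start, both lines, chr10:33005762-33005790: cgccctgcggaTGACTCActgcgtttgca
ITGB4, promoter, A549 alone, chr17:75721380-75721408: tgcagccggtcTGACTCAccagcgcctcc
ITGB6, upstream, both lines, chr2:160224234-160224314: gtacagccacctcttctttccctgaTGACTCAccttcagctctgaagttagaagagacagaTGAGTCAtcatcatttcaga
ITGB8, exon, both lines, chr7:20353102-20353130: actttaagctcTGACTCAtgctgggattg
ITGB8, intron, B2B alone, chr7:20385251-20385331: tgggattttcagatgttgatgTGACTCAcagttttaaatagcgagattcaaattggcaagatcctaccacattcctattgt
ITGA5, promoter, A549 alone, chr12:54419266-54419516 (minus strand): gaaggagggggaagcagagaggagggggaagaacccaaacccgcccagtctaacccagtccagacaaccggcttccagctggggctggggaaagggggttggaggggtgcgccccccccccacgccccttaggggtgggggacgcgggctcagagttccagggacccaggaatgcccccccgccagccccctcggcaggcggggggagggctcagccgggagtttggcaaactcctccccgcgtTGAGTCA
The ITGA3, ITGA6 and ITGB6 windows each hold 2 copies of the site. In the ITGB8 exon the nearest copy is centred 4 bp from the summit, in the ITGAV region called in A549 alone 1 bp, and in the ITGA6 intron 2 bp.

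At the promoters, 8 of the 9 genes carried H3K4me3 within 3 kb of a start in both lines, and ITGB6 did so in neither. Pol II was found at 8 of 9 genes in A549 and at 4 of 9 in B2B. The 4 with pol II in A549 and none in B2B were ITGA2, ITGA5, ITGA6 and ITGB4, so both chains of the hemidesmosome receptor were among them. Of all protein-coding genes, 69.6% had such a pol II peak in A549, 50.9% in B2B, and 19.5% in A549 and not in B2B. For H3K4me3 the shares over all genes were 73.7% in A549 and 62.8% in B2B. H3K27ac was found at 6 of the 7 genes its A549 list reaches (73.5% of all genes) and at 7 of 9 in B2B (64.9%), and Med1 at 5 of 7 in A549 (54.7%) and 5 of 7 in B2B (61.1%). Among the genes read in both lists of a target, none of the 9 had a promoter peak in B2B and not in A549, for any of the 7 targets. Over all genes this was rare for most targets, at 1.84% for pol II, 1.87% for H3K4me3, 2.04% for H3K27ac, 10.3% for Med1, 0.954% for JunB, 6.5% for Jun and 1.57% for JunD, so 0 of 7 to 9 genes stood near the background.

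**Figure D1:**
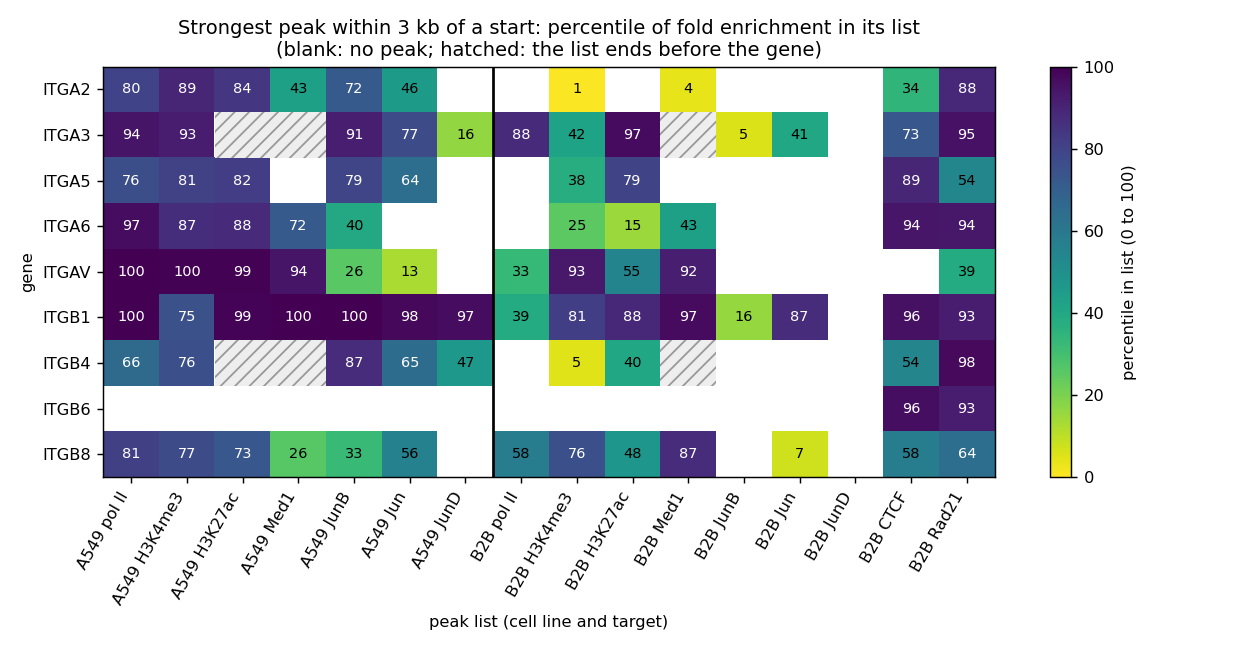
The map shows, for each of the 9 genes (rows) and each of the 16 lists (columns, A549 left of the line and B2B right of it), the percentile of fold enrichment of the strongest peak within 3 kb of a start among all peaks of that list, blank where there was no peak and hatched where the list ends before the gene. ITGB6 is blank but for CTCF and Rad21, and the B2B JunD column is empty for all 9 genes.

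The Jun family was read at the same starts. JunB lay within 3 kb of a start at 8 of the 9 genes in A549 and at 2 in B2B (31.1% and 5.28% of all genes). Jun lay at 7 genes in A549 and 3 in B2B (38.2% and 25.4%), and JunD at 3 genes in A549 and 0 in B2B (17.8% and 3.22%). Binding in A549 and not in B2B was seen at 6 of 9 genes for JunB (26.7% of all genes), 4 of 9 for Jun (19.3%) and 3 of 9 for JunD (16.2%). With JunB lists cut to the same number of peaks, 4 of 9 genes had JunB in A549 and 2 of 9 in B2B. The shares over all genes above are for the full lists. None is given for the cut lists, so these counts cannot be set against a background. The 3 genes with all 3 proteins in A549 were ITGA3, ITGB1 and ITGB4. This count allows the proteins to lie at different starts of a gene. At ITGA3 the strongest Jun and JunB peaks lay 8.86 kb past the 5′ end and the strongest JunD peak 0.456 kb past it. No single region within 3 kb of an ITGA3 start held all 3.

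The local backgrounds at the called promoter peaks also differed between the lines for several targets. Fold enrichment divides the reads piled up at a summit by a local background set by the peak caller, and both terms were solved from the deposited values. At the pol II peaks of the members the background was 1.65 to 3.31 reads in A549 and 12.8 to 53.4 reads in B2B. For H3K4me3 it was 2.54 to 4.35 reads in A549 and 13.6 to 64.6 in B2B, and for JunB 2.05 to 3.49 in A549 and 19.4 to 30.9 at the 2 genes called in B2B. For Med1 it was alike, 1.24 to 2.97 reads in A549 and 1.32 to 3.48 in B2B. Pileups differed less than folds. The median pol II pileup was 161 reads over 8 genes in A549 and 159 reads over 4 genes in B2B. The median fold was 50.2 in A549 and 4.78 in B2B. These medians cover unlike sets of genes. At the 4 genes called in both lines, A549 had more pol II reads than B2B at ITGA3 (200 and 131), ITGAV (292 and 187) and ITGB1 (317 and 231). At ITGB8 A549 had fewer (117 and 130). At peaks sampled across each whole list, the median background for pol II was 2.36 reads in A549 and 9.31 in B2B. For H3K4me3 it was 3.265 and 26.2. The whole Jun-family lists did not have this difference: JunB had 2.49 and 2.16 reads, Jun 1.36 and 1.23, and JunD 2.945 and 2.77. The part of the background in the missing B2B calls was not tested.

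**Figure D2:**
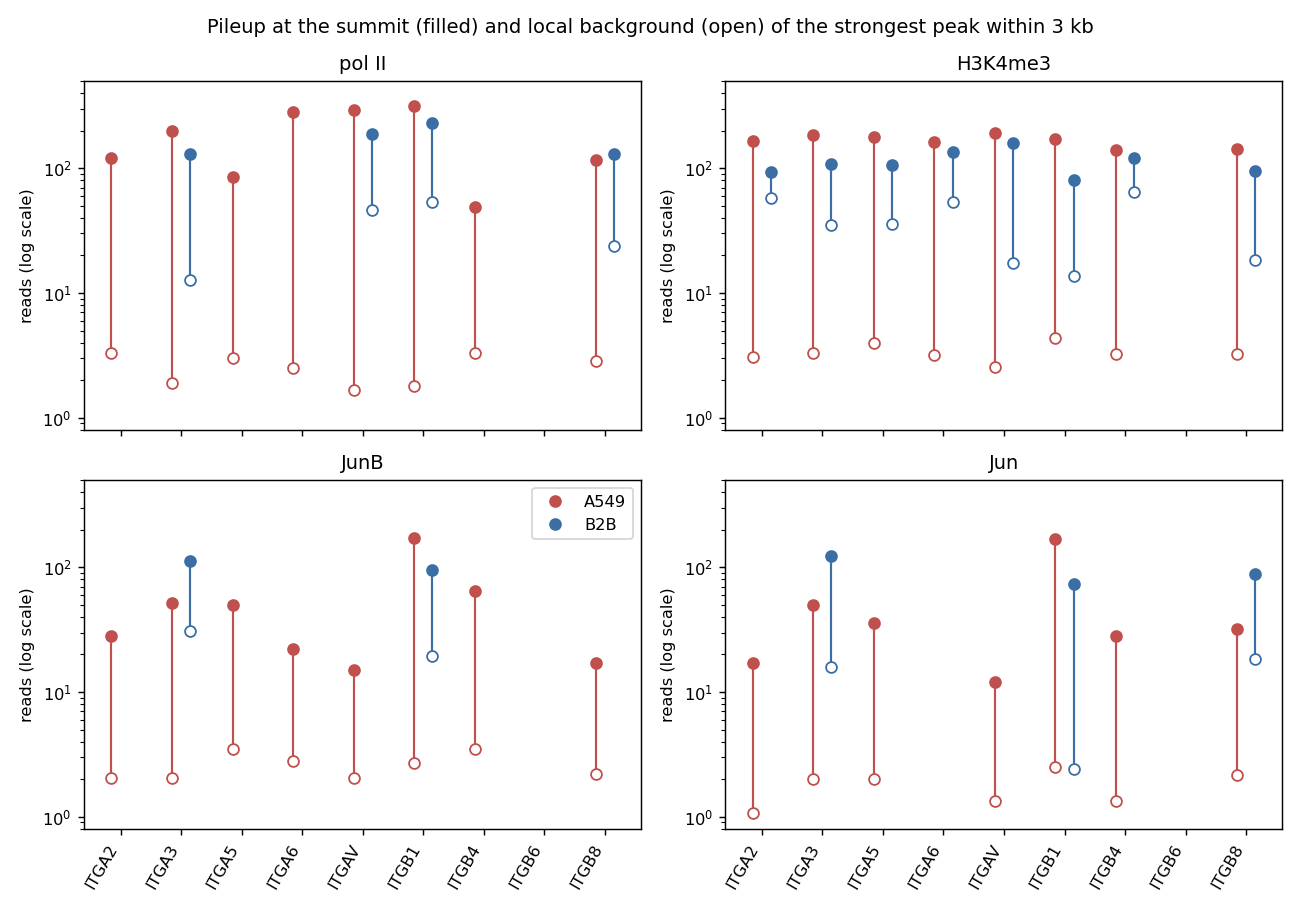
Each line joins the local background (open circle) to the pileup at the summit (filled circle) of the strongest peak within 3 kb, in reads on a log scale, for pol II, H3K4me3, JunB and Jun in A549 (red) and B2B (blue); a gene without a peak has no line. The open circles of B2B stand above those of A549 for every gene called in both lines for pol II, H3K4me3 and JunB, and for Jun at ITGA3 and ITGB8, while at ITGB1, where the strongest Jun peaks of the lines lie at different starts, the Jun backgrounds were 2.51 and 2.43 reads.

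Among the laminin receptors, ITGA3 (ENSG00000005884.18, chr17:50055968-50090481) bound Jun-family proteins at its promoter and upstream. In A549 its strongest pol II peak within 3 kb had 200 reads over a background of 1.89 (69.5-fold) and lay over the 5′ start. In B2B the strongest had 131 reads over 12.8 (9.60-fold) and lay before an internal start. The H3K4me3 fold was 43.0 in A549 and 3.06 in B2B, with pileups of 184 and 109 reads. H3K27ac in B2B reached 14.4-fold beside that internal start, at the 97.2 percentile of its list. Jun and JunB bound an exon 8.86 kb past the 5′ end in both lines, with 50 and 52 reads in A549 and 124 and 112 reads in B2B, so there the pileups were higher in B2B while the folds were higher in A549 (16.9 and 17.4 against 7.46 and 3.55). JunD within 3 kb was called in A549 alone, at 4.17-fold.

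The strongest Jun-family region near ITGA3 lay 4.76 kb upstream, between genes. In both lines Jun, JunB and JunD were all called at it. This is the first printed sequence. JunB there had 142 reads in A549 (46.9-fold) and 91 in B2B (8.95-fold), Jun 118 and 103 reads (42.4- and 17.3-fold), and JunD 41 and 36 reads (9.74- and 4.11-fold). Both lines thus had similar Jun and JunD pileups at this region. The Jun summits of the lines were 1 bp apart. Within 100 kb of its starts ITGA3 had 20 Jun-family regions: 7 common to the lines, 9 found only in A549 and 4 only in B2B. The strongest region in A549 alone was beside PPP1R9B (summed fold over the Jun-family lists, 10.1), and the strongest in B2B alone lay 36.9 kb upstream, with Jun only (14.9).

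ITGA6 (ENSG00000091409.16, chr2:172427354-172506459) had pol II at 281 reads over 2.49 in A549 (80.8-fold, the 96.8 percentile) and no pol II peak within 3 kb in B2B. H3K4me3 was called in both, with 162 reads over 3.16 in A549 and 135 reads over 53.9 in B2B, folds of 39.2 and 2.48. H3K27ac likewise had 245 reads over 2.46 in A549 and 133 over 38.7 in B2B. Med1 folds were 9.33 in A549 and 5.94 in B2B. The promoter was therefore marked in both lines. At the promoter only JunB was called, in A549 alone, at 6.06-fold. The strongest Jun-family region was in an intron 14.5 kb downstream of a start where Jun, JunB and JunD were called in A549 and B2B alike. The Jun pileup there was 95 reads in A549 and 84 in B2B (28.7- and 24.6-fold), JunB 80 and 40 reads, and JunD 21 and 35 reads. The gene had 9 regions, of which 3 were common to the lines, 2 A549-only and 4 B2B-only.

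ITGB4 (ENSG00000132470.14, chr17:75721328-75757818), the partner of alpha 6, had 49 pol II reads over 3.31 in A549 (11.6-fold) and no pol II peak in B2B. H3K4me3 was at 32.8-fold in A549 (139 reads) and 1.86-fold in B2B (121 reads over 64.6). In B2B the promoter also carried H3K27ac at 4.87-fold (199 reads over 40.1). All 3 Jun-family proteins bound the promoter in A549 alone, JunB at 14.7-fold with 65 reads, Jun at 12.4-fold with 28 reads and JunD at 5.42-fold with 17 reads. The JunB summit lay 50 bp past a start and the AP-1 site printed above was centred 16 bp from it. Only 1 of the 19 Jun-family regions near ITGB4 had ITGB4 as its nearest coding start, since SAP30BP, H3-3B, UNK, UNC13D and others lie close by. The strongest of these was over H3-3B, which encodes the histone variant H3.3, with 131 Jun reads in A549 and 169 in B2B. The folds there were 47.0 and 3.82, over backgrounds of 1.81 and 43.6 reads.

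The collagen receptor chain ITGA2 (ENSG00000164171.11, chr5:52989340-53094779) had pol II at 28.3-fold (121 reads) in A549 and none in B2B. H3K4me3 was at 40.8-fold in A549, with 165 reads over 3.07, and at 1.60-fold in B2B, with 93 reads over 57.8, the 0.643 percentile of the B2B list. H3K27ac was at 62.5-fold in A549 and not called in B2B. Of the 7 genes read in both lists 1 had this difference, near the 11.2% of all genes. Med1 was called in both, at 6.30- and 3.80-fold. JunB and Jun bound 1.3 to 1.4 kb upstream in A549 alone, with 28 and 17 reads, and JunD was absent from both lists there. The strongest region within 100 kb lay 66.7 kb upstream in an intron of ITGA1, the neighbouring collagen receptor gene. There Jun was higher in B2B, with 116 reads and 39.4-fold against 31 reads and 15.4-fold in A549. Its summit held no AP-1 site.

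ITGA5 (ENSG00000161638.11, chr12:54395261-54419266), the fibronectin receptor chain, had pol II at 21.5-fold (85 reads) in A549 and none in B2B. H3K4me3 was at 35.7-fold in A549 and 2.90-fold in B2B (177 and 106 reads), and H3K27ac at 56.2-fold over the start in A549. The strongest B2B H3K27ac peak, at 8.06-fold, lay inside the gene before an internal start. No Med1 peak lay within 3 kb in either line. Jun and JunB bound 49 and 40 bp upstream of the start in A549 alone, at 12.3- and 11.4-fold with 36 and 50 reads. The printed promoter ends on an AP-1 site within 50 bp of the Jun summit, which covers the last 6 bases before the start and the first base after it. Of the RefSeq promoter windows for ITGA2, ITGA5, ITGA6, ITGAV, ITGB1, ITGB6 and ITGB8, only that of ITGA5 held the site. Over all 35116 RefSeq promoters of 300 bases, 4.95% held TGACTCA on either strand and 1.85% held TGACGTCA, the related CRE site. Its 9 regions within 100 kb split into 2 common, 5 A549-only and 2 B2B-only, and ITGA5 was the nearest coding gene for 2.

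ITGAV (ENSG00000138448.13, chr2:186590010-186680901) had one of the strongest pol II peaks of the A549 list, with 292 reads over 1.65 (110.5-fold, the 99.7 percentile). In B2B the same start had 187 reads over 46.6 and 3.95-fold, the 33.0 percentile. H3K27ac pileups were 303 reads in A549 and 241 in B2B, with folds of 129 and 5.83. Med1, whose background was alike in the lines, had 41 reads and 18.8-fold in A549 and 32 reads and 14.2-fold in B2B. The pileups of these 3 targets thus differed by less than their folds. JunB and Jun were called at the promoter in A549 alone and were weak, at 5.25- and 5.58-fold with 15 and 12 reads. ITGAV was the only 1 of the 9 genes without a CTCF peak within 3 kb in B2B. The strongest Jun-family region lay 14.5 kb upstream and was shared, with JunB at 25.9-fold in A549 and 10.9-fold in B2B, and Jun at 18.6- and 26.1-fold. A region 17.1 kb upstream was bound by JunB and Jun in A549 alone (9.36- and 8.25-fold), and its printed sequence holds an AP-1 site at the summit. Near ITGAV the split was 4 common regions, 6 A549-only and 2 B2B-only.

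ITGB1 (ENSG00000150093.20, chr10:32887273-33005792), the partner of alpha 2, 3 and 5, carried peaks across its length. The record holds 36 transcripts with 25 start sites over 93.7 kb. Pol II had 317 reads over 1.79 in A549 (114-fold) and 231 reads over 53.4 in B2B (4.26-fold), and Med1 131 reads (50.9-fold) and 53 reads (20.1-fold). In 1 of its 2 RefSeq promoter windows, with the summit 47.4 kb past the 5′ end of the record, Jun, JunB and JunD bound in A549 alone, with 121, 46 and 37 reads and folds of 42.9, 14.97 and 8.81. That summit held no AP-1 site. At the distal start, at the 5′ end of the record, Jun and JunB bound in both lines, with 169 and 172 reads in A549 (48.4- and 47.1-fold) and 148 and 95 reads in B2B (10.1- and 4.70-fold). JunD was called there in A549 alone, with 66 reads and 13.3-fold. The AP-1 site was centred 15 bp from the A549 Jun summit.

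Within 100 kb of its starts ITGB1 had 19 Jun-family regions, of which 8 were common to the lines, 10 A549-only and 1 B2B-only. The whole 19 had ITGB1 as nearest coding start and 14 lay inside the gene. The strongest B2B Jun peak, 42.5 kb past the 5′ end, had 74 reads over 2.43 (21.9-fold), at a region called in both lines. Jun, JunB and JunD were called together at 7 regions in A549 and at 0 in B2B. From 18 to 44 kb past the 5′ end, a window set after the values were seen, 8 regions stood together, of which 6 were shared. Of these 8, 6 overlapped Med1 in A549 and 2 in B2B, and 4 overlapped H3K27ac in A549 and 2 in B2B. Shared regions near all protein-coding starts overlapped Med1 at 24% in A549 and 23.7% in B2B, and H3K27ac at 26.6% and 26%. For regions in A549 alone these shares were 39.5% and 31.3% for Med1, and 42.9% and 32.7% for H3K27ac.

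The gene bodies repeated this. Pol II had 73 peaks over ITGB1 in A549, covering 50.4% of the gene, and 6 peaks covering 2.55% in B2B. For Med1 the peaks numbered 23 (10.9%) against 5 (2.58%), and for H3K27ac 19 (8.11%) against 5 (2.86%). Over ITGA3, pol II covered 24.1% in A549 and 8.32% in B2B, and over ITGA6 3.95% and 0.579%. ITGB8 went the other way, with 1 pol II peak (0.650%) in A549 and 5 (1.78%) in B2B, and with Med1 at 0 peaks in A549 and 3 in B2B. Over all 9 genes A549 pol II had 108 peaks, or 16.01 per 100 kb, where all protein-coding gene bodies had 3.17. B2B pol II had 18 peaks, 2.67 per 100 kb beside 1.57. The ratio of A549 to B2B pol II peaks was 6 over the 9 genes and 2.92 without ITGB1, and by covered base pairs it was 9.10 and 3.05. For H3K27ac and Med1, on the genes both lists reach, the ratios of 1.93 and 2.25 turned to 0.889 and 0.571 without ITGB1. For JunD it turned from 2.2 to 0.600. Over all protein-coding gene bodies, H3K27ac had 2.26 peaks per 100 kb in A549 and 2.482 in B2B. Med1 had 1.196 in A549 and 1.51 in B2B, and JunD 0.4089 and 0.2452. Over the genes each list reaches, H3K27ac and Med1 had fewer peaks per 100 kb in A549 and JunD had more. Without ITGB1 the integrin genes had fewer in A549 for each of these targets. The A549 H3K27ac list reaches 12764 protein-coding genes and the B2B list 20029. Their values over all genes thus do not cover the same genes.

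**Figure D3:**
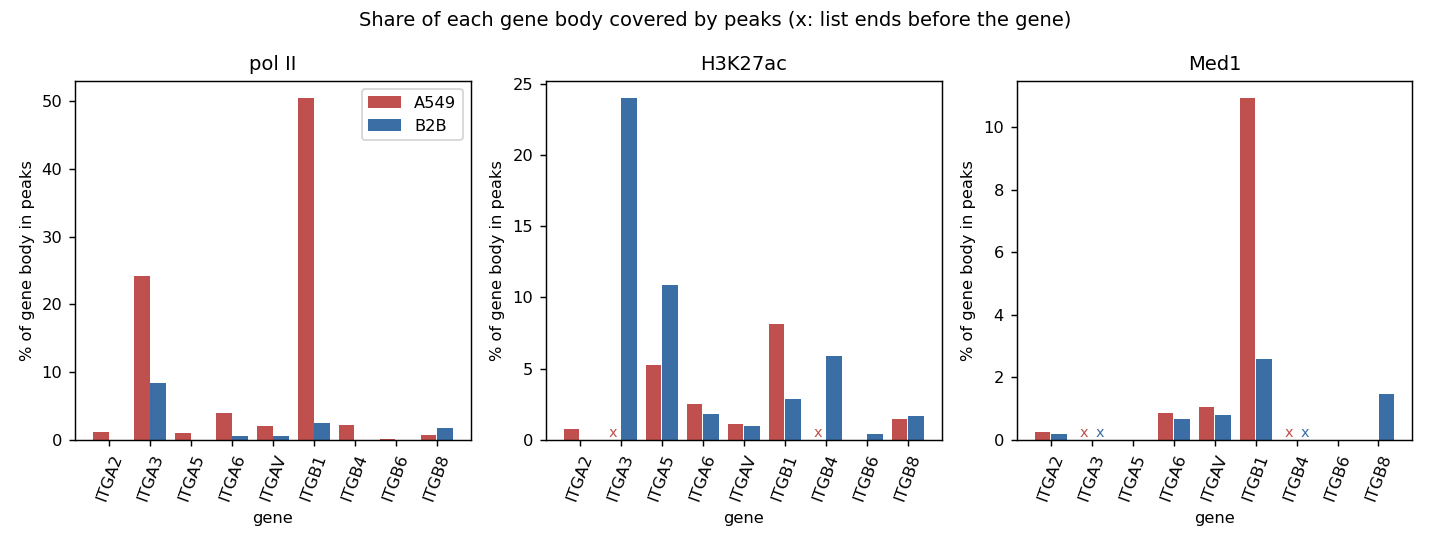
The bars give the percent of each gene body covered by peaks of pol II, H3K27ac and Med1 in A549 (red) and B2B (blue), with a separate axis from 0 for each target and an x where the list ends before the gene. Pol II over ITGB1 in A549 stands at 50.4% and over ITGA3 at 24.1%, and the other A549 pol II bars are below 4%.

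ITGB6 (ENSG00000115221.12, chr2:160099667-160200313) had no peak of pol II, H3K4me3, H3K27ac, Med1 or any Jun-family protein within 3 kb of its 7 starts in either line. In B2B a CTCF peak of 43.4-fold (108 reads) and a Rad21 peak of 17.5-fold (34 reads) lay about 1.9 kb inside an internal start. ITGB6 had 21 Jun-family regions within 100 kb, the highest count of the 9 genes, made up of 7 common, 4 A549-only and 10 B2B-only ones. The stretch searched widens with the span of the starts, which was 88.2 kb here and 0.1 to 93.7 kb over the 9 genes. ITGB6 was the nearest coding start for 11 of the 21. Within the 45 kb upstream of the gene, a window set after the values were seen, there were 10 regions between genes: 6 common, 2 A549-only and 2 B2B-only. Of the 10, 6 held an AP-1 site, 7 overlapped CTCF in B2B, 3 overlapped H3K27ac in A549 and 1 in B2B, and 8 overlapped pol II in A549 and 3 in B2B. Shared regions near all protein-coding starts held the site at 54.7% and overlapped H3K27ac at 26.6% in A549 and 26% in B2B. For CTCF and pol II no share over all regions is given, so these counts are not read as a trait of the stretch. RBMS1 is the next coding gene on that side.

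The strongest region of all 128, by summed fold, was in this upstream stretch, 24.0 kb before the start. Each of Jun, JunB and JunD was called there in A549 and in B2B. Jun pileups were nearly equal, 96 reads in A549 and 95 in B2B, and folds of 35.5 and 40.3. JunB had 106 reads in A549 and 30 in B2B (31.0- and 9.29-fold), and JunD 36 and 40 reads (9.20- and 12.7-fold). The summits of Jun in the lines were 1 bp apart, and the backgrounds were 1.73 and 1.38 reads. Pol II and Med1 overlapped it in A549, CTCF overlapped it in B2B, and H3K27ac and H3K4me3 in neither line.

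ITGB8 (ENSG00000105855.10, chr7:20330702-20415754) had more Jun-family regions in B2B. Its promoter was marked in both lines, with pol II at 117 reads in A549 and 130 in B2B (30.8- and 5.30-fold) and Med1 at 15 and 33 reads (5.37- and 12.1-fold). H3K4me3 had 143 reads in A549 and 95 in B2B (33.8- and 4.93-fold). JunB was called at the promoter in A549 alone, at 5.64-fold with 17 reads. Jun bound it in both, with 32 reads over 2.18 in A549 and 89 reads over 18.4 in B2B. Of its 10 Jun-family regions, 7 were called in B2B alone, 2 in both and 1 in A549 alone. In an exon 22.4 kb past the 5′ end, Jun had 87 reads and 40.7-fold in B2B and 27 reads and 13.8-fold in A549, JunB 38 and 65 reads, and JunD 31 reads in B2B and no peak in A549. In an intron 54.6 kb past the 5′ end all 3 proteins bound in B2B alone, Jun with 64 reads (30.03-fold), JunB with 15 (5.44-fold) and JunD with 16 (5.91-fold). This was the only region of the 38 called in B2B alone that held all 3 proteins. Upstream, 4 regions between 3.4 and 28.9 kb were bound by Jun in B2B alone, and 3 of these held an AP-1 site. None of the 4 overlapped H3K4me3, H3K27ac, Med1 or pol II in either line.

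**Figure D4:**
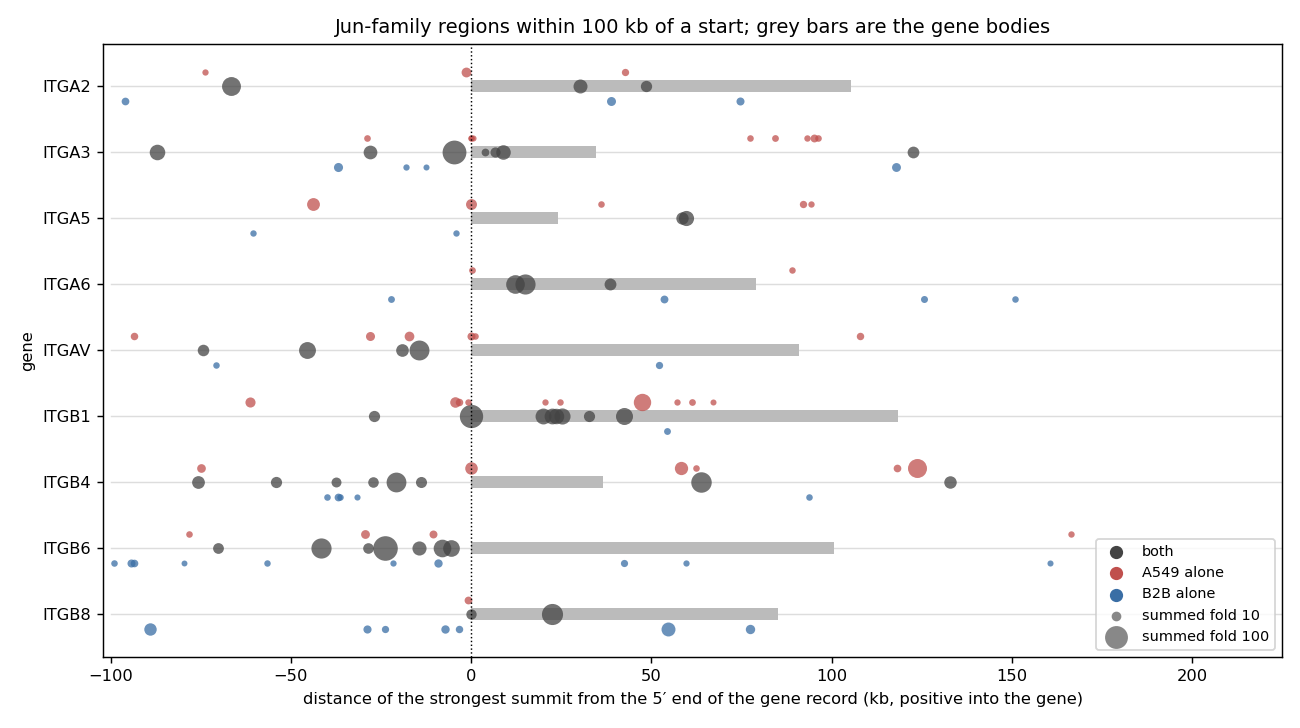
Each point is a Jun-family region placed by the distance of its strongest summit from the 5′ end of the gene record (kb, positive into the gene), coloured by whether it was called in both lines (grey), in A549 alone (red, above the line) or in B2B alone (blue, below), with area rising with the summed fold; grey bars are the gene bodies. Red points crowd ITGB1 (10 of 19) and blue points ITGB8 (7 of 10), and all 7 shared regions of ITGB6 lie upstream of its 5′ end.

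In all, 128 Jun-family regions lay within 100 kb of a start of the 9 genes. Of these, 44 were called in both lines (34.4%), 46 in A549 alone (35.9%) and 38 in B2B alone (29.7%). Among 55710 such regions near any protein-coding start the shares were 27.2%, 34.8% and 38%, so the share in A549 alone stood near that over all genes. Regions with a summit within 3 kb of a start were 5 of the shared ones, 13 of those in A549 alone and 0 of those in B2B alone. Counted to any protein-coding start, these were 13 of 44 shared regions (29.5%), 26 of 46 in A549 alone (56.5%) and 5 of 38 in B2B alone (13.2%). Near all protein-coding starts they were 24.4%, 44.1% and 15.8%, in the same order. The 13 regions in A549 alone at a start of the integrin genes lay at 8 genes, 11 overlapped H3K4me3 in A549, and 8 overlapped H3K4me3 in B2B. No such share for regions at all coding starts is given. Of all protein-coding genes, 73.7% in A549 and 62.8% in B2B had H3K4me3 within 3 kb of a start, which is a looser measure than overlap. The median summed fold was 43.9 for shared regions, 7.15 in A549 alone and 7.29 in B2B alone. Of the regions in B2B alone, 36 of 38 came from a single list, and of those in A549 alone 29 of 46. Near all protein-coding starts the medians were 34.2, 8.80 and 7.67, and single lists gave 90.4% of the regions in B2B alone and 59.8% of those in A549 alone.

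The proteins were spread differently in the lines. In A549, JunB was called at 69 of the 128 regions, Jun at 78 and JunD at 22, where the shares near all protein-coding starts were 38.4%, 52.8% and 12.8%. In B2B, Jun was called at 82, JunB at 20 and JunD at 13, with shares of 64.4%, 11.6% and 8.35% near all starts. Jun stood without JunB and JunD at 18 regions in A549 and 61 in B2B (21.5% and 51.4% near all starts). All 3 proteins met at 19 regions in A549, of which 7 were at ITGB1 and 6 near ITGB4, and at 12 in B2B, of which 3 were near ITGB6 (10.2% and 6.18% near all starts). The B2B JunB list held 8563 peaks and the A549 JunB list 28068, and the Jun lists 45047 and 35602.

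The AP-1 site lay within 50 bp of the strongest summit at 28 of 44 shared regions (63.6%), 11 of 46 regions in A549 alone (23.9%) and 11 of 38 in B2B alone (28.9%). Near all protein-coding starts the shares were 54.7%, 30.1% and 30%. The CRE site was found at 1 of the 128, the region over H3-3B. H3K27ac of the same line overlapped 13 of 31 regions in A549 alone that its list reaches (41.9%) and 7 of 38 in B2B alone (18.4%). Med1 of the same line overlapped 11 of 31 (35.5%) and 2 of 29 (6.90%). Near all protein-coding starts these shares were 42.9% and 9.88% for H3K27ac, and 39.5% and 8.98% for Med1. H3K27ac of the other line overlapped 20 of 46 regions in A549 alone (43.5%) and 1 of 29 in B2B alone (3.45%). Near all starts those shares were 32.7% and 2.14%. Med1 of the other line overlapped 6 of 31 (19.4%) and 1 of 29 (3.45%), beside 31.3% and 0.832% near all starts.

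Jun had a peak in both lines at 43 regions, which allowed its level to be set side by side. The summits were a median of 18 bp apart, and 37 of the 43 lay within 50 bp. Fold enrichment was higher in A549 at 30 of the 43, and the median percentile in the list was 75.1 in A549 and 50.9 in B2B. The pileup, by contrast, was higher in A549 at 18 of the 43, with a median of 44 reads in A549 and 59 in B2B, and at 13 regions the fold was higher and the pileup lower in A549. The background was 0.996 to 3.02 reads in A549 and 1.16 to 43.6 reads in B2B. Reads were not scaled between the lists here, since their depths were not stated. The direction of the difference at these regions thus depended on whether the pileup or the fold was read.

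**Figure D5:**
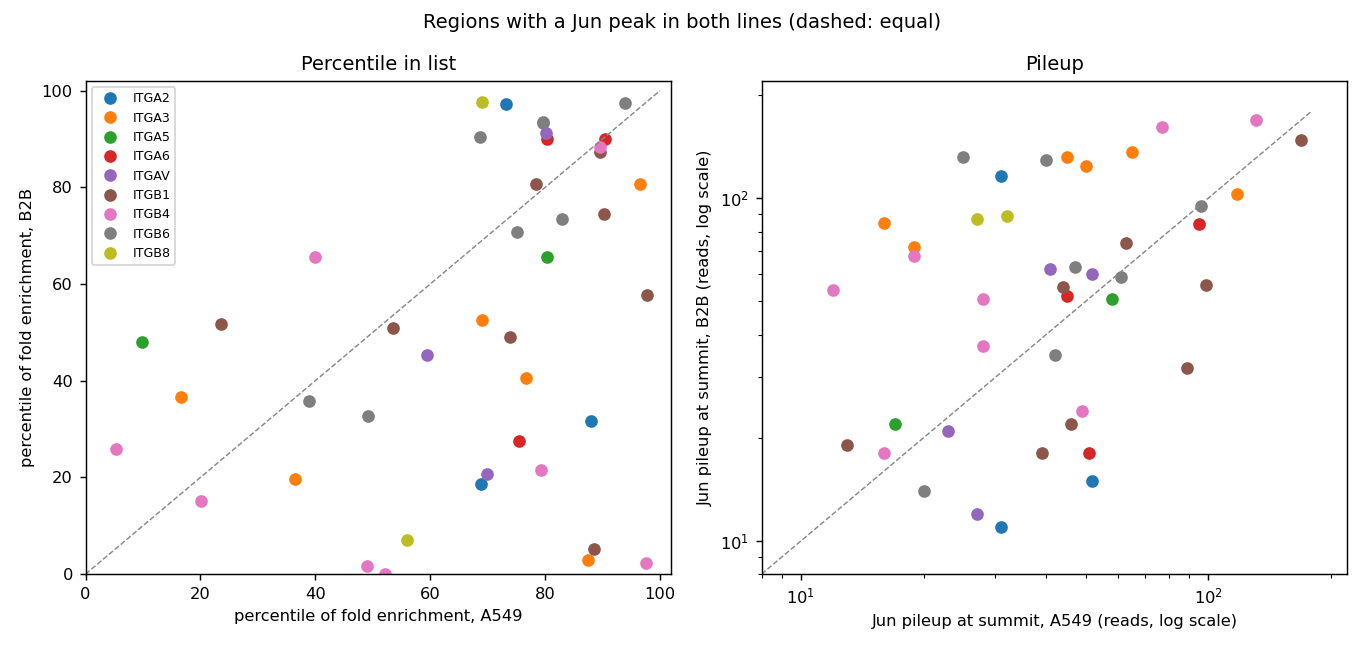
Each point is 1 of the 43 regions with a Jun peak in both lines, coloured by gene, with the percentile of fold enrichment in the list (left) and the pileup in reads on log scales (right), A549 across and B2B upward; the dashed line marks equal values. Percentiles are higher in A549 at 29 regions and pileups at 18.

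CTCF and Rad21, which together mark chromatin loops and insulators, were read in B2B only. CTCF lay within 3 kb of a start at 8 of 9 genes (50.1% of all genes) and Rad21 at 9 of 9 (67.9%). Counting only the 5′ end of each gene record, CTCF lay at 5 of 9. The share over all genes counts any start, and none is given for the 5′ end alone. At ITGA6 both peaks lay about 3.1 kb before an internal start, with 115 CTCF reads (36.9-fold) and 37 Rad21 reads (18.6-fold). At ITGB4 they lay 1.8 kb before an internal start, with 230 reads (9.84-fold) and 229 reads (25.6-fold).

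Of all protein-coding genes, 12.4% had all 3 Jun-family proteins within 3 kb in A549 and not in B2B, and 1.21% the reverse. As above, the proteins could lie at different starts of a gene. Of the genes around these receptors, all 3 Jun-family proteins lay within 3 kb of a start in A549 and not in B2B at 5 of 18 focal adhesion adaptors: FERMT2 (kindlin-2), LIMS1 (PINCH1), ZYX (zyxin), TNS1 (tensin-1) and ACTN4 (alpha-actinin-4). ZYX had JunB at 33.8-fold and Jun at 31.6-fold in A549, against no JunB peak and Jun at 3.60-fold in B2B. The reverse held at 2 adaptors, TLN2 (talin-2) and PARVA (alpha-parvin). PARVA had Jun at 26.3-fold, JunB at 7.81-fold and JunD at 7.73-fold in B2B and none of the 3 in A549. Among 4 hemidesmosome partners the trio was at PLEC (plectin) and CD151 in A549 alone and at DST (dystonin) in B2B alone. Among 9 ligands other than laminins, which were not in the list, it was at FN1 (fibronectin) and TNC (tenascin-C) in B2B alone. Jun was at 31.4- and 29.1-fold there, and none of the 9 had the trio in A549 alone. Of 17 other integrin subunits none had the trio in exactly 1 line, and ITGB5 had it in both. Of the epithelial markers, EPCAM had the trio in A549 alone, CDH1 (E-cadherin) in B2B alone, and KRT8 and KRT18 in both. KRT8 and KRT18 had the same Jun folds, 36.9 in A549 and 21.0 in B2B, so the 2 may count the same peaks. Any Jun-family peak within 3 kb was found at 13 of 18 adaptors in A549 and 15 in B2B, at 8 and 6 of the 17 other subunits, at 7 and 6 of the 9 ligands, and at 8 and 3 of the 9 genes described here. Over all protein-coding genes the shares were 43.8% in A549 and 25.5% in B2B.

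Across the lists, the protein-coding genes whose percentiles were nearest to those of each integrin gene were found by the mean absolute difference, with 0 where there was no peak. For ITGAV they were FBXO30 and MRPS36, 5.01 and 5.45 percentile points away over 16 lists. For ITGB1 the nearest was PTP4A1 (7.57). The pairs were for ITGA2 PLEKHA6 and PALD1 (6.69 and 6.72), and for ITGA6 PALS2 and HSPA12A (6.98 and 7.54). For ITGB8 they were CD9 and GLYCTK (9.78 and 10.3) and for ITGA5 VARS1 and CDON (10.6 and 10.7). For ITGA3 and ITGB4, over 13 lists, they were STMN1 and TRAPPC3 (8.25 and 9.23) and KCNIP2 and EHBP1L1 (7.95 and 8.09). ITGB6, with peaks in only the CTCF and Rad21 lists, was nearest to APOBEC4 and RXFP2 (0.365 and 0.405).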

How the data were processed

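The peak lists of 36 samples in 18 groups of 2 replicates, 4 of the samples being input chromatin, were analysed. Per the submitters' processing notes and the methods, the authors aligned reads to hg38 with Bowtie2 2.4.4, removed duplicates, merged replicates, scaled counts with SAMtools 1.13 and called peaks with MACS2 2.2.7.1; the options and the control were not stated. The score deposited by the authors is 10 times the −log10 q-value, the fold enrichment is their deposited ratio of pileup to local background, and −log10 p and −log10 q-values are deposited beside them with a summit offset. The lists stop at a q-value of 0.01.

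Pileup and background at a summit were solved from fold and p. The solution met the deposited p within 0.01 for all peaks sampled in every list, and recovered 500 of 500 simulated pileups. Interval counts were tested on simulated data against bedtools (2 of 2 equal). Starts and genes came from GENCODE release 44, whose build matched the files, with 0 peaks past a chromosome end. Overlap meant at least 1 bp. Percentile is the share of peaks in a list with a fold at or below the value. Jun-family peaks of the 6 lists that overlapped were merged. Sites were searched within 50 bp of the strongest summit. Python 3.11.15, NumPy 2.4.6, SciPy 1.17.1, pysam 0.24.0 and Matplotlib 3.10.9 were used.

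The members and lists were chosen with earlier results of these data known. Named were all 9 genes, list genes with all 3 Jun-family proteins within 3 kb in exactly 1 line, and per gene and class the region of highest summed fold. Cell type markers were also fixed by name. The likeness of promoter values named the nearest genes of each member, of which 1 is not reported here. No test was made, since each group is 1 pooled list. Other distances, a −log10 q of at least 5, single starts, lists of equal length, isolated regions and covered base pairs were tried.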

Additional observations from a re-analysis of the deposited data

How the results depend on the processing

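No paired analysis was possible because the replicates were merged before peaks were called, and no replicate could be left out. Of 125 alternative values, 105 stayed within 1.5 times the reported one. With lists of equal length, 4 genes had JunB within 3 kb in A549. Within 1 kb, or at the 5′ end of the gene record only, 1 gene had JunB in B2B, and at the 5′ end only 5 genes had CTCF. Within 5 kb, 5 genes had Jun and 1 had JunD in B2B. Within 50 kb, 23 Jun-family regions were called in B2B alone, and within 200 kb 70 were called in B2B alone, 71 in both and 63 in A549 alone, which turned the order of the 2 lines. By covered base pairs the A549 to B2B ratio over gene bodies was 9.10 for pol II and 6.05 for JunB. Without ITGB1, an alternative chosen after seeing the data, the ratio of peaks was 2.92 for pol II, 0.889 for H3K27ac, 0.571 for Med1 and 0.600 for JunD. Without it the ratio of covered base pairs was 3.05 for pol II, 0.928 for H3K27ac, 0.706 for Med1, 0.549 for Jun and 0.531 for JunD. The cause of these moves was not tested beyond what each setting leaves out. Peak presence depends on depth, which was not stated, and on the local background, which differed between the lines at many of the called peaks. The share of each region that comes from 1 replicate cannot be told apart.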
